A study of Mus musculus with 6 samples.

Results

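The genes described here encode the heterogeneous nuclear ribonucleoproteins (hnRNPs) and the serine/arginine-rich (SR) splicing factors of the mouse, with the SR-like proteins Tra2a and Tra2b. They were taken by name: every protein-coding gene of the deposited table, off patch sequences, whose symbol begins with Hnrnp or with Srsf and a digit, or is Tra2a or Tra2b. That gave 33 of 22046 protein-coding genes, 20 of them hnRNP genes and 13 SR or Tra2 genes. Their transcripts numbered 281 of the 136550 in the deposited transcript table. By annotation 134 of these 281 are protein-coding forms, 74 are retained-intron forms, 38 are targets of nonsense-mediated decay and 35 are processed transcripts without an open reading frame, and the last 3 classes are called noncoding forms here. The rule used the names of the genes and not their measured values, but it was set with earlier results of these data known.

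The libraries came from rod photoreceptors of mice that were electroporated in vivo as newborns (P0) and analysed at P10. In 1 group the retina received a plasmid expressing a short hairpin RNA (shRNA) against Jun, and in the other a plasmid with a scrambled shRNA. Both groups also received a vector that expresses EGFP from the Nrl promoter, which is active in rods, and EGFP-positive cells were isolated by flow sorting. RNA was made into full-length cDNA by a low-input SMART-seq method, with 3 libraries in each group. The labels do not say which libraries came from separate animals, so each p-value reflects only how these particular libraries varied, which may be technical.

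Splicing factors of both families bind pre-mRNA while it is being made. SR proteins mostly bind exonic enhancers through an RNA recognition motif and recruit the spliceosome through their arginine- and serine-rich domain, while hnRNPs coat nascent RNA and often block the use of nearby splice sites. Many genes of both families control their own level by splicing: an excess of the protein favours a form of its own transcript with a premature stop codon or a retained intron, and the form with the premature stop is removed by nonsense-mediated decay. Photoreceptors have a splicing programme of their own, and mutations in core spliceosome genes cause retinitis pigmentosa.

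The forms Srsf3-201, Tra2b-206 and Hnrnpll-203 hold an exon with a premature stop codon, and these 3 exons are shown up to their stop codon because the forms that hold them are described among the results. Coordinates are those of GRCm38 with GENCODE vM21 transcripts, the sequence reads 5′ to 3′ on the strand of the gene in lower case, and capitals mark the premature stop codon. The first is the start of exon 4 of the decay form Srsf3-201, at chr17:29039454-29039487 on the plus strand.
Srsf3-201: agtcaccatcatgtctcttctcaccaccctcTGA
The second is the start of exon 2 of Tra2b-206 and Tra2b-207, at chr16:22259181-22259261 on the minus strand.
Tra2b-206: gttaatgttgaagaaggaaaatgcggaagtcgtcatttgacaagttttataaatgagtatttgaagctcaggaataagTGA
The third is the start of exon 7 of Hnrnpll-203, at chr17:80044976-80045022 on the minus strand.
Hnrnpll-203: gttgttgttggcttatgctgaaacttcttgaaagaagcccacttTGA

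Several facts of the libraries touch every result. The control libraries held 46239299, 105800769 and 32150086 estimated counts, and the libraries labelled Jun knockdown (the knockdown-labelled libraries) held 13211279 to 13998395, so depth and group cannot be told apart. Jun itself was not lower in the knockdown-labelled libraries: it stood at 6.46, 5.86 and 7.16 CPM (counts scaled to the size of each library) in the controls and at 1.80, 17.6 and 19.3 CPM in the knockdown-labelled libraries (log2 change 0.99, SE 1.44, adjusted p = 0.764, edgeR's quasi-likelihood test). All 8 rod markers were above 1 CPM in every library, but their summed level was 79609.8 to 100438 CPM in the controls and 6561 to 9786 CPM in the knockdown-labelled libraries. Summed Müller glia markers were at 1686 to 1978 CPM against 252 to 297 CPM, cone markers at 1362 to 3989 CPM against 606 to 1422 CPM, and bipolar cell markers at 352 to 520 CPM against 466 to 824 CPM. Summed microglia markers were at 662 to 977 CPM in the controls, where 5 of 6 were above 1 CPM in every library, and at 1.53 to 3.26 CPM in the knockdown-labelled libraries, where 0 of 6 were. Vascular and blood markers went from 165 to 302 CPM in the controls to 20.3 to 65.9 CPM in the knockdown-labelled libraries (Hba-a1 at 0), and amacrine, ganglion cell, progenitor and pigment epithelium markers were between 0 and 69.6 CPM in every library, with Sncg and Mlana at 0 in the labelled ones. The part of these differences in the results on splicing factors was not tested, and in such bulk libraries fewer cells of a type and less RNA per cell cannot be told apart.

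Of the 33 genes, 3 passed the test between the groups. Hnrnpk and Hnrnpf were lower in the knockdown-labelled libraries and Srsf2 was higher. All 33 genes passed the filter on low counts and were tested by edgeR's quasi-likelihood test among 12815 genes, of which 1.67% had an adjusted p under 0.05 (0.32% higher and 1.35% lower in the knockdown-labelled libraries). At an unadjusted p under 0.05, 8 genes of the 33 were higher and 4 were lower, beside 6.13% and 10.7% of all genes tested (16.8% in all). The groups did not overlap for 11 genes that were higher and 5 that were lower, beside 12.6% and 15.7% of all genes tested. Their median log2 fold change was 0.51, and that of all tested genes was -0.12. The values depended on the scaling of the libraries: with library totals in place of trimmed means of M values (TMM) the median of all genes moved to 0.38 and the calls among the 33 to 3 higher and 0 lower, and with upper-quartile scaling to 0.27 with 3 higher and 1 lower. The median of the 33 genes stood 0.61 to 0.63 above that of all genes under each of 4 scalings. A scaling moves all genes by nearly the same amount, so that gap could hardly change and does not show a stable difference. Over all alternatives the median of the 33 genes ran from 0.19 (limma-trend, larger pseudocount) to 0.99 (library totals).

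**Figure D1:**
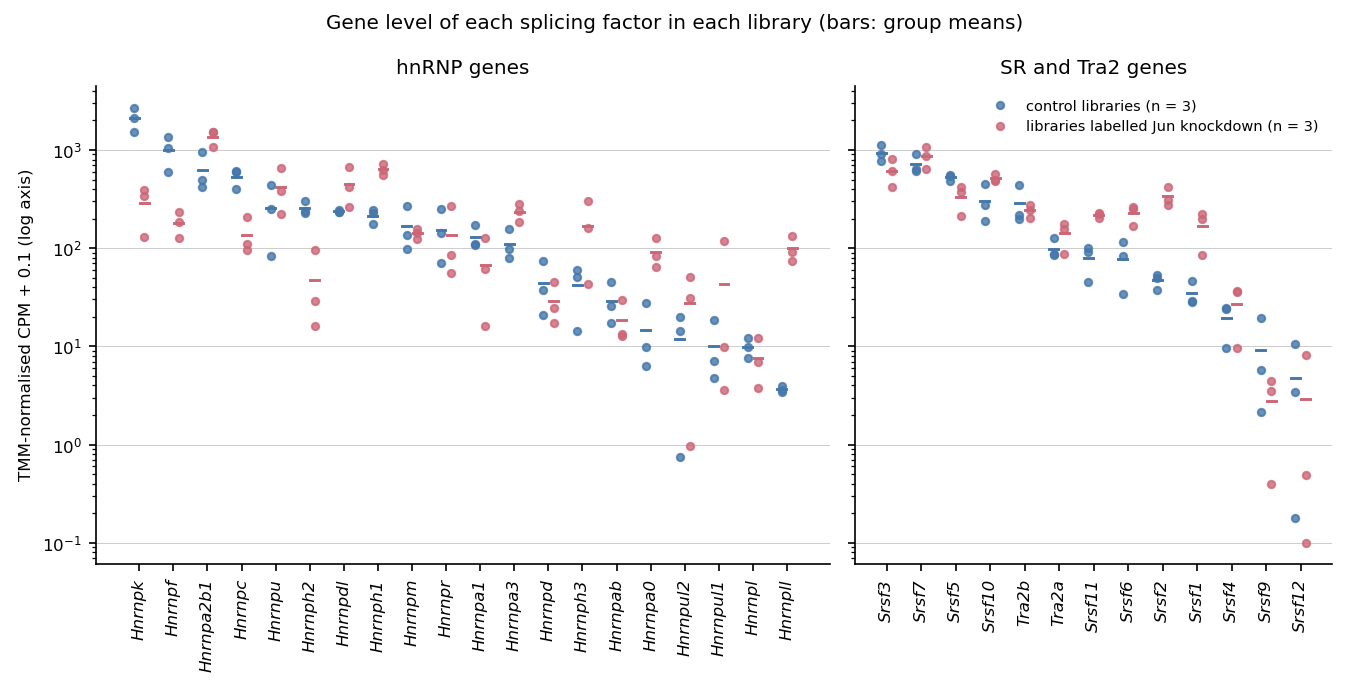
Level of each of the 33 genes in every library, as TMM-normalised CPM plus 0.1 on a log axis; points are the 3 control and the 3 labelled libraries and short bars are group means. Hnrnpk and Hnrnpf lie lower in all 3 labelled libraries than in any control, and Srsf2 and Hnrnpll lie higher.

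Hnrnpk encodes a KH-domain protein that binds C-rich RNA and DNA (ENSMUSG00000021546, chr13:58391142-58403343, minus strand). It stood at 2694, 2102 and 1540 CPM in the controls, and the values were 129, 393 and 338 CPM in the knockdown-labelled libraries. All 3 labelled libraries lay below every control. Hnrnpk fell by 2.88 log2 units (SE 0.46, adjusted p = 0.0203, edgeR's quasi-likelihood test). The call was lost without control 1 (adjusted p = 0.110), control 2 (0.0722), control 3 (0.0679) or labelled library 3 (0.0566), and kept without labelled library 1 (0.0281) or 2 (0.0407). With library totals as the scaling the adjusted p of Hnrnpk was 0.0550 and that of Hnrnpf 0.0590. In TPM, a level corrected for transcript length, Hnrnpk had the highest level of the 20 hnRNP genes in the controls, at 1244 ± 316 TPM (SD, n = 3), and the level that ranked 4 in the knockdown-labelled libraries, at 218 TPM. The genes after it in the controls were Hnrnpf at 641 ± 292 TPM, Hnrnpa2b1 at 481 ± 191 TPM, Hnrnpc at 392 TPM and Hnrnph1 at 162 TPM. Down to Hnrnpc, each gene's range over the controls overlapped that of its neighbour in this order. In the knockdown-labelled libraries the order was led by Hnrnpa2b1 at 1398 ± 83.7 TPM and Hnrnph1 at 598 TPM. These TPM values include noncoding forms. In coding forms alone, not corrected for length, the means in those libraries had another order. Hnrnpdl was at 341 CPM, Hnrnpa3 at 296 CPM, Hnrnpk at 270 CPM, Hnrnpa2b1 at 249 CPM and Hnrnph1 at 193 CPM.

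The hnRNP F/H proteins bind runs of guanines, and the differences of their genes ran in both directions. Hnrnpf (ENSMUSG00000042079, chr6:117900324-117925622, plus strand) stood at 1054, 1369 and 592 CPM in the controls, and the values were 235, 126 and 185 CPM in the knockdown-labelled libraries. Each labelled library was below each control. Hnrnpf fell by 2.46 log2 units (SE 0.44, adjusted p = 0.0355, edgeR). This call was lost without any 1 of the 6 libraries: the adjusted p was 0.129, 0.143 and 0.0664 without controls 1, 2 and 3, and 0.0643, 0.0917 and 0.0981 without labelled libraries 1, 2 and 3. DESeq2 gave an adjusted p of 0.0639 and limma-voom 0.0965. Hnrnph2, its X-linked relative, stood at 228, 241 and 304 CPM in the controls, and the values were 29.1, 96.2 and 15.9 CPM in the knockdown-labelled libraries, again without overlap (log2 change -2.45, SE 0.76, adjusted p = 0.146). Hnrnph1, the closest relative of Hnrnph2 in sequence, had values of 243, 226 and 175 CPM against 557, 721 and 631 CPM, higher in every labelled library (log2 change 1.57, SE 0.37, adjusted p = 0.0662). Hnrnph3 overlapped between the groups, at 51.3, 60.1 and 14.1 CPM against 43.0, 162 and 299 CPM (adjusted p = 0.308).

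As shares of the summed TPM of the 4 F/H genes, Hnrnpf made up 65.8, 71.1 and 55.4% in the controls and 25.1, 9.74 and 15.1% in the knockdown-labelled libraries. Hnrnph1 made up 17.9, 14.2 and 19.6% against 67.3, 67.0 and 57.3%. By TPM over all forms, the leading member of the family was therefore Hnrnpf in each control and Hnrnph1 in each labelled library. Noncoding forms held 60.6, 60.5 and 53.7% of the Hnrnph1 counts in the labelled libraries. In coding forms alone, not corrected for length, Hnrnpf had 224, 117 and 179 CPM there and Hnrnph1 had 150, 247 and 182 CPM. By that measure Hnrnpf led in labelled library 1. Both shares gave an exact two-sided permutation p of 0.1, the smallest that 3 against 3 libraries allow.

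**Figure D2:**
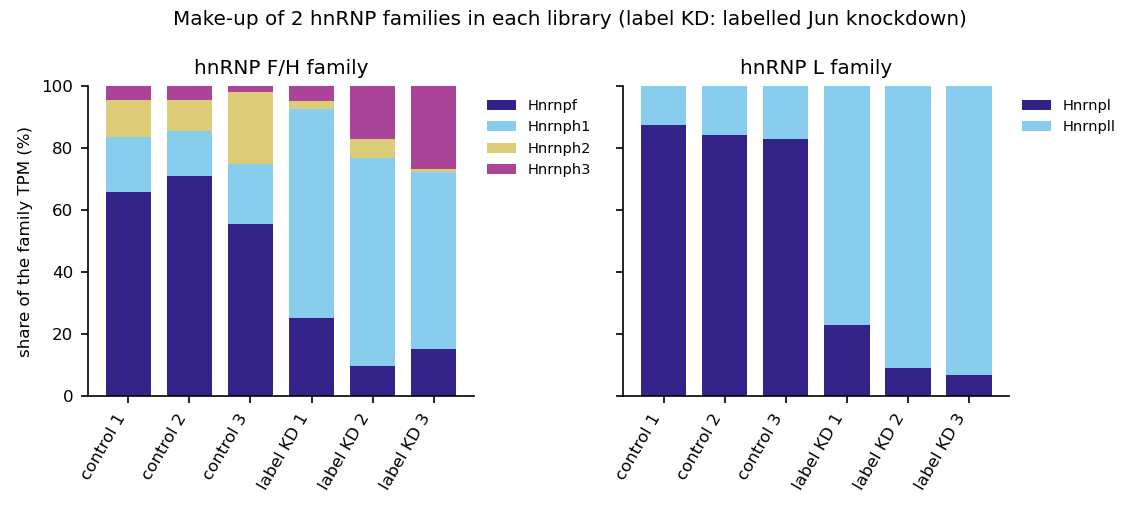
Share of the family's summed TPM taken by each gene of the hnRNP F/H and hnRNP L families, in percent, for each of the 6 libraries as a stacked bar. Hnrnpf takes 55.4 to 71.1% of the F/H sum in the controls and 9.74 to 25.1% in the knockdown-labelled libraries, and Hnrnpll takes 12.6 to 17.1% of the L sum in the controls and 77.2 to 93.1% in the knockdown-labelled libraries.

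Hnrnpll, which controls exon skipping in Ptprc in lymphocytes (ENSMUSG00000024095, chr17:80029487-80062334, minus strand), had the largest log2 fold change of the 33 genes. It stood at 3.33, 3.51 and 3.82 CPM in the controls, and the values were 74.2, 133 and 90.5 CPM in the knockdown-labelled libraries. The lowest labelled library was far above the highest control. The log2 change was 4.81 (SE 0.98) with an adjusted p of 0.0505 in edgeR's test, just outside the threshold, while DESeq2 gave 9.87e-07 and limma-voom 0.0430. With 1 library left out, edgeR's adjusted p ran from 0.0954 (without labelled library 1) to 0.181 (without control 2). Its paralogue Hnrnpl, a binder of CA repeats, had 11.9, 7.54 and 9.70 CPM against 12, 6.78 and 3.63 CPM, with overlap (adjusted p = 0.910). Hnrnpll made up 15.1 ± 2.32% (SD, n = 3) of the summed TPM of Hnrnpl and Hnrnpll in the controls and 87.1 ± 8.63% in the knockdown-labelled libraries (exact permutation p = 0.1).

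Among the other hnRNP genes, Hnrnpc, which binds uridine tracts, stood at 594, 405 and 607 CPM in the controls, and the values were 110, 95 and 207 CPM in the knockdown-labelled libraries. The groups did not overlap, but the gene did not pass the test (log2 change -1.96, SE 0.47, adjusted p = 0.0694). The 7 genes of the A/B and D families, RNA-recognition-motif proteins that bind UAG and AU-rich elements, had a median log2 fold change of 0.93, and 4 of them were higher without overlap. Hnrnpa2b1 (ENSMUSG00000004980, chr6:51460932-51469894, minus strand) stood at 946, 497 and 416 CPM against 1516, 1073 and 1526 CPM (log2 change 1.15, SE 0.38, adjusted p = 0.172). Hnrnpa0 had 27.5, 6.18 and 9.83 CPM against 64.1, 126 and 83.2 CPM (log2 change 2.65, SE 1.00, adjusted p = 0.226). Hnrnpdl stood at 236, 242 and 233 CPM against 263, 421 and 670 CPM, and Hnrnpa3 had a log2 change of 1.08, both higher without overlap (adjusted p = 0.331 and 0.337). Hnrnpa1, the best studied member of the family, overlapped at 108, 173 and 111 CPM against 61.2, 15.9 and 125 CPM. The remaining hnRNP genes, Hnrnpab, Hnrnpd, Hnrnpm, Hnrnpr, Hnrnpu, Hnrnpul1 and Hnrnpul2, overlapped between the groups, with adjusted p from 0.522 to 0.929. Reads of Hnrnpu and of Srsf1 may be split with an identical copy on a patch sequence, so their levels are uncertain.

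Srsf2 was the SR gene that passed the test (ENSMUSG00000034120, chr11:116849901-116853094, minus strand). Its protein binds exonic enhancers and gathers in nuclear speckles. It stood at 37.3, 49.9 and 53.3 CPM in the controls, and the values were 313, 417 and 278 CPM in the knockdown-labelled libraries. Every labelled library was above every control. Srsf2 was higher by 2.84 log2 units (SE 0.52, adjusted p = 0.0361, edgeR's quasi-likelihood test). The call was lost without any 1 library, with adjusted p of 0.142, 0.143 and 0.133 without controls 1, 2 and 3 and of 0.0827, 0.105 and 0.0756 without labelled libraries 1, 2 and 3, and it was kept with DESeq2, limma-voom and each of 4 scalings. Per length Srsf2 went from 38.1 ± 3.43 TPM (SD, n = 3) in the controls, rank 8 of the 13 SR and Tra2 genes, to 369 ± 133 TPM in the knockdown-labelled libraries, rank 2.

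No other SR or Tra2 gene passed the test, and 3 of them were among the 4 with an unadjusted p under 0.05, all higher. Srsf1, the prototype of the family, stood at 46.3, 29.0 and 28.1 CPM against 225, 84.9 and 196 CPM (log2 change 2.29, SE 0.72, adjusted p = 0.152). Srsf6 stood at 33.7, 82.6 and 115 CPM against 249, 261 and 168 CPM (1.55, SE 0.63, adjusted p = 0.258). Srsf11, which is found in speckles and contacts U2AF, stood at 101, 91.0 and 45.0 CPM against 227, 203 and 225 CPM (1.47, SE 0.57, adjusted p = 0.239). In these 3 genes all labelled libraries were above all controls.

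The most abundant SR genes had smaller differences. Srsf3, the smallest SR protein, had 900, 765 and 1130 CPM in the controls and 609, 424 and 805 CPM in the knockdown-labelled libraries, with overlap (log2 change -0.60, SE 0.35, adjusted p = 0.416). Srsf5 was lower without overlap, at 482, 549 and 560 CPM against 375, 418 and 212 CPM (-0.66, SE 0.39, adjusted p = 0.427). Srsf7, the one member with a zinc knuckle, overlapped at 905, 605 and 647 CPM against 870, 635 and 1077 CPM (0.26, SE 0.34, adjusted p = 0.736). Srsf10, a repressor when dephosphorylated, was higher without overlap, at 448, 191 and 273 CPM against 494, 573 and 479 CPM (0.76, SE 0.42, adjusted p = 0.394), but its direction reversed when the transcript counts were summed per gene (-0.25). Tra2b, an activator that binds GAA-rich enhancers, overlapped at 218, 439 and 199 CPM against 205, 277 and 245 CPM (-0.24, SE 0.48, adjusted p = 0.833). Tra2a, Srsf4, Srsf9 and Srsf12 overlapped too, with adjusted p from 0.707 to 0.887. In TPM the controls ran in the order Srsf3 at 438, Srsf5 at 395, Srsf7 at 387, Srsf10 at 185 and Tra2b at 151, and the knockdown-labelled libraries in the order Srsf7 at 592, Srsf2 at 369, Srsf3 at 368, Srsf10 at 365 and Srsf5 at 339.

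**Figure D3:**
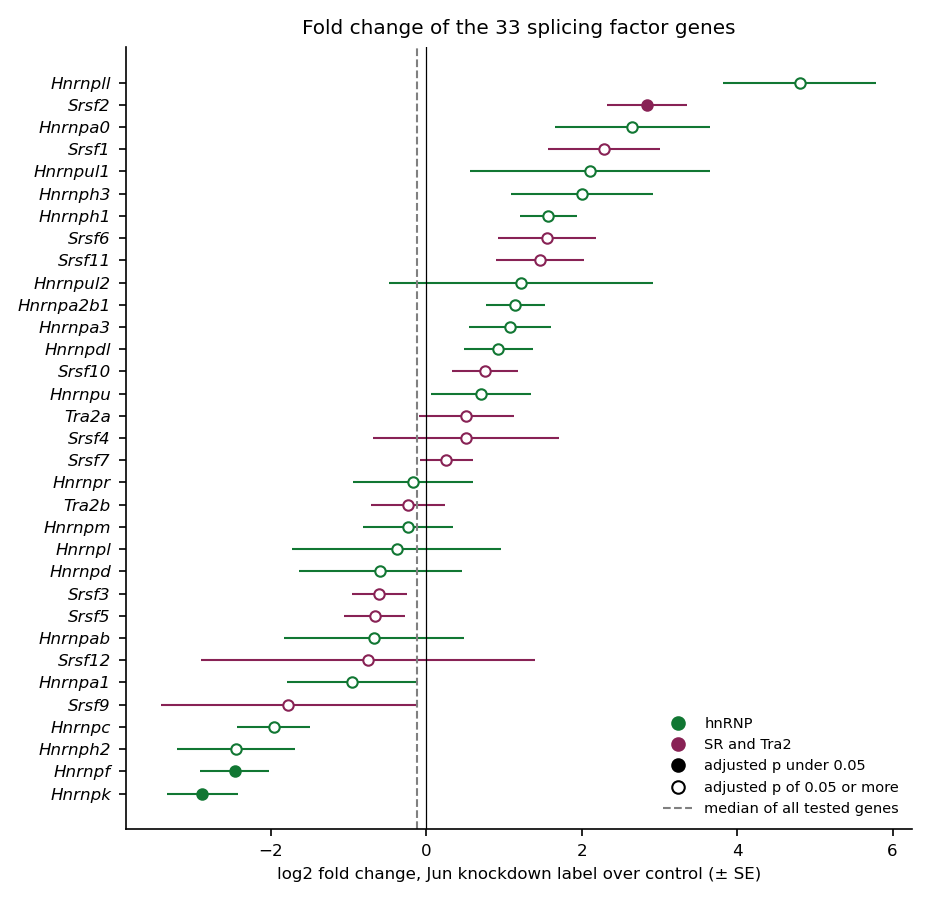
Log2 fold change (labelled Jun knockdown minus control) of each of the 33 genes with its standard error, from edgeR's fit over all genes; filled points have an adjusted p under 0.05 and the dashed line is the median of all tested genes, -0.12. Hnrnpk (-2.88), Hnrnpf (-2.46) and Srsf2 (2.84) are filled, and Hnrnpll lies farthest to the right at 4.81.

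As a sum over genes, the hnRNP level was 5967 ± 1358 CPM (SD, n = 3) in the controls and 4598 ± 554 CPM in the knockdown-labelled libraries, with overlap (exact permutation p = 0.2). The sum of the SR and Tra2 genes was 3139 ± 201 CPM against 3689 ± 237 CPM, without overlap (exact permutation p = 0.1). That difference of 550 CPM was 887, 1464 and 1734 CPM with DESeq2's size factors, upper quartiles and library totals as the scaling. The direction of the hnRNP sum rested on Hnrnpk: without that gene the difference of means went from -1369 to 457 CPM, and with library totals as the scaling it was 445 CPM.

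In the transcript table the form that passed the test was a retained-intron form of Hnrnpa2b1, which held most of the counts of that gene in the knockdown-labelled libraries and few in the controls. Of the 281 transcripts, 133 passed the filter on low counts (81 coding, 22 retained-intron, 17 decay and 13 processed forms), and 1 of them had an adjusted p under 0.05 in edgeR's test, beside 0.662% of 20706 transcripts (0.058% higher, 0.604% lower). At an unadjusted p under 0.05, 14 were higher and 15 lower, beside 4.79% and 10.8% of all transcripts tested (15.5% in all). Without overlap between the groups were 23 higher and 32 lower transcripts, beside 12.4% and 17.6% of all transcripts tested. The 81 coding forms had a median log2 fold change of -0.89, with 12 higher and 29 lower without overlap. The 22 retained-intron forms had a median of 1.05, with 4 higher and 1 lower. The median over all transcripts tested, of every type together, was -0.18. Medians and counts by type were not computed over all genes, so the values by type have no like background. Over all protein-coding genes, coding forms summed to 51.6% of the control mean in the knockdown-labelled libraries. Retained-intron forms of all these genes made up 3.23% of their counts against 8.49%.

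The called transcript was Hnrnpa2b1-211 (chr6:51461145-51463184, minus strand), annotated as a retained-intron form, with 2 exons that both lie 3′ of the coding sequence of the gene. It stood at 114, 64.7 and 51.4 CPM in the controls, and the values were 1116, 691 and 1139 CPM in the knockdown-labelled libraries. Each labelled library was several times above the highest control. That is a log2 change of 3.68 (SE 0.47, adjusted p = 0.0222, edgeR). The call was lost without control 1 (0.0866), control 2 (0.121), control 3 (0.158), labelled library 1 (0.0717) or labelled library 3 (0.0802), and DESeq2 gave 0.0710. The form made up 11.4, 10.2 and 11.2% of the transcript counts of Hnrnpa2b1 in the controls and 78.6, 65.3 and 77.5% in the knockdown-labelled libraries. The coding forms of Hnrnpa2b1 summed to 804, 519 and 388 CPM in the controls and to 211, 277 and 260 CPM in the knockdown-labelled libraries. Under TMM scaling the coding forms were thus lower in every labelled library while the gene as a whole was higher. Because the form covers the 3′ end only, reads on it do not show whether the rest of the molecule was spliced.

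**Figure D4:**
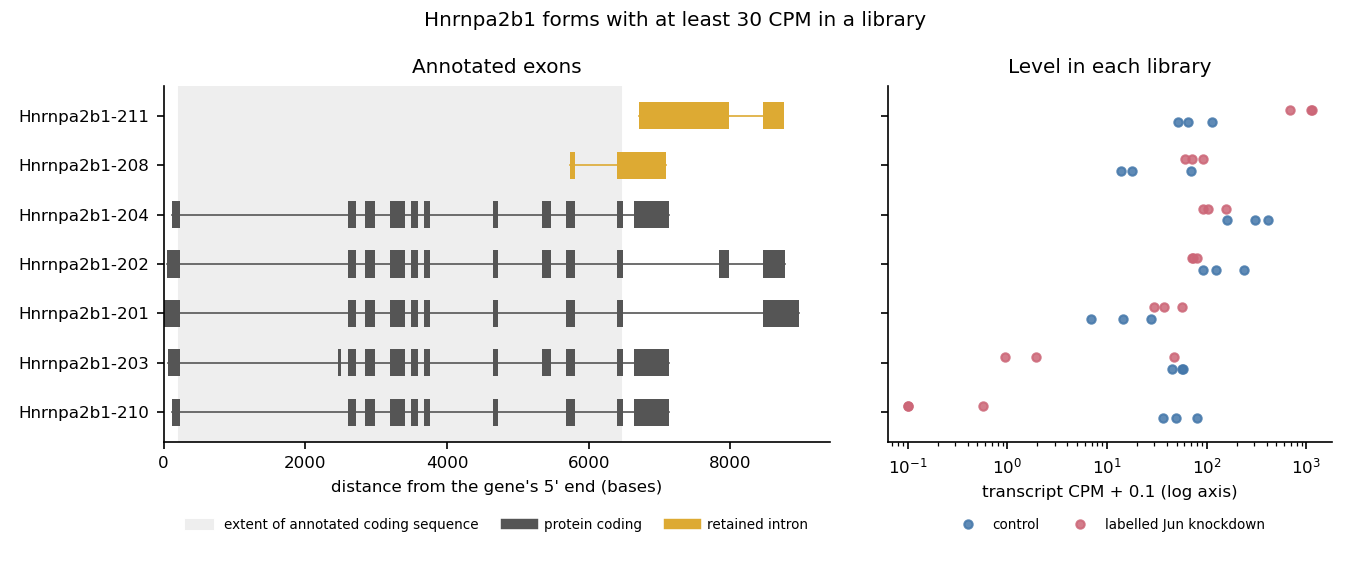
Forms of Hnrnpa2b1 that reach 30 CPM in any library: left, their exons by distance in bases from the 5′ end of the gene, with the coding range marked; right, their level in each library as CPM plus 0.1 on a log axis. The form Hnrnpa2b1-211 lies beyond the coding range and is at 51.4 to 114 CPM in the controls and 691 to 1139 CPM in the knockdown-labelled libraries.

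Other forms at the 3′ end of their genes were at higher levels too, without passing the test. Hnrnph1-212, which holds the last 4 exons of the gene, had 14.8, 14.3 and 29.4 CPM in the controls and 164, 194 and 167 CPM in the knockdown-labelled libraries (log2 change 3.16, SE 0.73, adjusted p = 0.0921). Hnrnpu-205, which lies 3′ of the coding sequence of this RNA- and chromatin-binding scaffold protein, had 128, 49.4 and 49.4 CPM against 503, 153 and 216 CPM. The labelled libraries were above all controls for both forms. The coding forms of Hnrnph1 summed to 195 ± 52.6 CPM (SD, n = 3) in the controls and 193 ± 49.3 CPM in the knockdown-labelled libraries and its noncoding forms to 65.3 CPM against 274 CPM. The gene count of Hnrnph1 exceeded the sum of its forms in the knockdown-labelled libraries, with a ratio of 1.38, 1.11 and 1.49. In the controls the ratio was 0.890, 0.960 and 1.03. Gene counts and transcript counts had the same total in each library. Hnrnpa0, with 1 deposited form, had ratios of 0.946, 0.931 and 0.941 in the knockdown-labelled libraries. The cause of these ratios was not tested. They affect the fold change of a gene: with transcript counts summed per gene, Hnrnph1 had a log2 change of 1.12 (adjusted p = 0.205, edgeR).

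Several forms were listed at 0 in every library of one group. Hnrnpa1-205 was at 0 in the controls and at 54.5, 5.76 and 100 CPM in the knockdown-labelled libraries, at least 2248-fold higher when 3 counts in the whole group are taken as the floor. Tra2b-207, which holds the premature stop exon printed above, was at 0 in the controls and at 9.22, 7.31 and 9.24 CPM (at least 371-fold higher). Srsf11-208 (at least 1272-fold) and Hnrnpm-207 (at least 598-fold) were also at 0 in the controls. In the other direction, Hnrnph2-202 was at 149, 48.1 and 17.0 CPM in the controls and at 0 in the knockdown-labelled libraries (at least 1125-fold lower), Hnrnpul1-201 at 7.83, 14.4 and 5.60 CPM and at 0 (at least 186-fold lower), and Srsf3-205 at 26.7, 2.24 and 3.43 CPM and at 0 (at least 144-fold lower). None of these forms passed the transcript test. The labelled libraries were shallower than the controls, and these folds cover counting error only. They do not cover how estimated counts were divided among overlapping forms of a gene, which was not tested. In Hnrnpa1 the mean share of Hnrnpa1-205 went from 0 to 72.2%, while that of Hnrnpa1-202 went from 67.2 to 1.53%. The level of that gene overlapped between the groups.

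The main coding forms of Hnrnpk in the controls were lower in each of the knockdown-labelled libraries. Hnrnpk-224 had 1322, 1440 and 927 CPM in the controls and 0.0195, 26.2 and 48.8 CPM in the knockdown-labelled libraries, and Hnrnpk-201 had 977, 949 and 804 CPM against 3.53, 150 and 0 CPM. Hnrnpk-202 had 165, 132 and 93.6 CPM against 70.2, 67.5 and 69.6 CPM, which is a smaller difference without overlap, and Hnrnpk-214 had 99.0, 150 and 73.9 CPM against 0, 0.378 and 0 CPM. A coding form of Hnrnpa2b1 with 10 exons (ENSMUST00000204188) had 79.4, 48.7 and 36.7 CPM against 0.476, 0 and 0 CPM, and Hnrnpm-201 had 78.8, 227 and 53.8 CPM against 7.84, 7.55 and 1.74 CPM. In Hnrnpf the single-exon form Hnrnpf-210, which holds the whole coding sequence, made up 33.8, 32.5 and 38.6% of the counts of the gene in the controls and 99.2, 70.0 and 88.3% in the knockdown-labelled libraries. Its level was lower in those libraries, at 426, 578 and 257 CPM against 223, 82.0 and 158 CPM, so its share was larger because the other forms were lower still. The spliced forms Hnrnpf-201 and Hnrnpf-209, with 4 and 3 exons, made up less, at 31.3, 37.2 and 39.9% against 0, 16.0 and 11.5% for the first.

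The decay forms differed in direction. Srsf3-201, which holds the printed exon, had 432, 284 and 335 CPM in the controls and 167, 0.302 and 1.64 CPM in the knockdown-labelled libraries, lower in all 3, while the coding form Srsf3-202 had 557, 604 and 836 CPM against 438, 421 and 791 CPM, with overlap. Tra2b-206 had 44.8, 119 and 66.9 CPM against 15.2, 52.3 and 12.5 CPM, with overlap. Srsf2-204, annotated as a decay form, has an intron spliced out within the last exon of the coding form Srsf2-201, after the usual stop codon. It had 0, 13.2 and 14.7 CPM against 63.9, 96.1 and 40.8 CPM, higher in all 3. Srsf2-201 was higher in all 3 as well, at 59.4, 20.1 and 13.7 CPM against 187, 220 and 235 CPM. Hnrnpll-203 was at 0, 2.4 and 0.434 CPM against 0, 82.8 and 3.94 CPM, so its level rested on labelled library 2. Each labelled library had its own main form of Hnrnpll: Hnrnpll-201 was at 69.6, 0 and 0 CPM, and Hnrnpll-205 at 0, 47.9 and 78.1 CPM.

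The ratio of noncoding to coding counts could be tested for 25 of the 33 genes among 4448 protein-coding genes, of which 0.045% had an adjusted p under 0.05 in edgeR's test. None of the 25 did, and 3 had an unadjusted p under 0.05, beside 10.3% of all genes tested (8.5% with a higher and 1.75% with a lower ratio). In Hnrnpa2b1 the noncoding share was 19.4, 18.3 and 15.3% in the controls and 85.1, 73.8 and 82.3% in the knockdown-labelled libraries (log2 ratio change 4.30, SE 0.88, adjusted p = 0.200). In Srsf10 it was 10.9, 13.8 and 10.0% against 40.8, 44.6 and 52.1% (2.70, SE 1.17, adjusted p = 0.484). In Srsf6 it was 0.813, 45.5 and 79.9% against 0, 0.0614 and 0% (-12.07, SE 3.47, adjusted p = 0.298), so the controls differed widely among themselves. The median log2 ratio change was 0.82 over the 25 genes and 1.35 over all genes tested.

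Summed over all 33 genes, the noncoding share of the counts was 14.7, 14.4 and 12.4% in the controls and 35.7, 34.9 and 29.99% in the knockdown-labelled libraries, or 13.8 ± 1.23% against 33.5 ± 3.09% (SD, n = 3, exact permutation p = 0.1). Over all protein-coding genes it was 7.41 ± 0.447% against 15.5 ± 1.24%. By family, the hnRNP share was 11, 6.82 and 4.94% in the controls and 51.5, 44.0 and 42.2% in the knockdown-labelled libraries, without overlap, while the SR and Tra2 share was 25.7 ± 4.6% against 18.9 ± 4.32%, with overlap (exact permutation p = 0.2). Without Hnrnpa2b1 the hnRNP share was 9.86, 5.86 and 3.97% in the controls against 33.3, 33.3 and 23.1%, still without overlap. The difference between the families was not tested. Retained-intron forms of the hnRNP genes made up 2.80 ± 2.03% against 28.4 ± 5.03%, and 1.45 ± 1.56% against 4.83 ± 0.729% without Hnrnpa2b1. Over all protein-coding genes retained-intron forms made up 3.23 ± 0.406% against 8.49 ± 0.991%, higher in every labelled library. Decay forms of the SR and Tra2 genes made up 12.4 ± 1.24% against 5.80 ± 3.03%, lower in every labelled library, beside 2.44% against 3.32% for all protein-coding genes. This too rested on Srsf3: the decay share of the other 12 SR and Tra2 genes was 4.56 ± 2.04% against 5.04 ± 1.74%, with overlap. Without Hnrnpa2b1 the share of the other 32 genes was 13.6 ± 1.13% against 23.8 ± 4.75%.

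**Figure D5:**
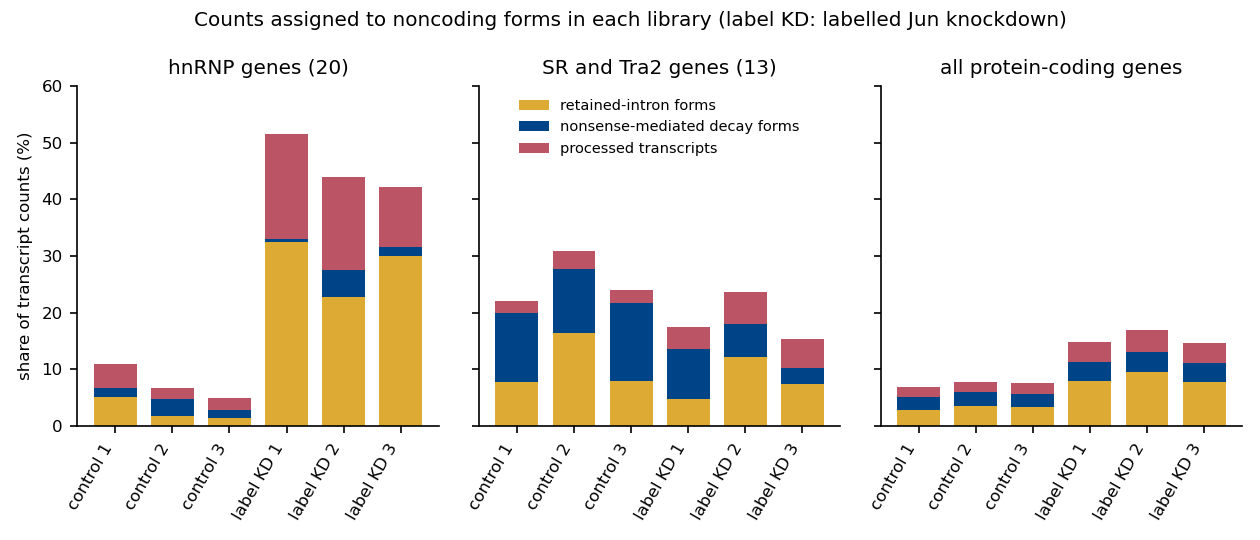
Noncoding forms as a percent of transcript counts in each library, stacked by annotated type, for the 20 hnRNP genes, the 13 SR and Tra2 genes and all protein-coding genes. The hnRNP bars reach 4.94 to 11% in the controls and 42.2 to 51.5% in the knockdown-labelled libraries, and the SR and Tra2 bars of the groups overlap.

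The noncoding forms were also counted by their position within the gene. Forms wholly 3′ of the coding sequence made up 1.73 ± 0.751% of the counts of the 33 genes in the controls and 17.2 ± 4.10% in the knockdown-labelled libraries, and 0.0161% against 0.0892% over all other protein-coding genes. Only Hnrnpa2b1-211, Hnrnpu-205 and Hnrnpdl-203 of these forms were above 1 CPM. Forms that start after the start codon made up 3.97 ± 2.04% against 24.7 ± 3.39%, and those that reach the start codon 9.86% against 8.85%, with overlap. Over all other protein-coding genes the first were 2.72% against 7.01% and the second 4.64% against 8.30%, both without overlap. Without Hnrnpa2b1, forms of the other members that start after the start codon made up 3.20 ± 1.74% against 13.3 ± 1.60%. Their forms wholly 3′ of the coding sequence made up 1.13% against 5.51%. For Hnrnpa2b1-211 and Hnrnpu-205 the groups did not overlap in CPM, and for Hnrnpdl-203 they did.

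In levels, the coding forms of the hnRNP genes summed to 7391, 7691 and 5112 CPM in the controls and to 1959, 2245 and 2634 CPM in the knockdown-labelled libraries, 33.9% of the control mean. Their noncoding forms summed to 914, 563 and 266 CPM against 2083, 1762 and 1921 CPM. Both sums kept the groups apart, in opposite directions, but without Hnrnpa2b1 the noncoding sum overlapped, at 720, 447 and 195 CPM against 874, 982 and 711 CPM. Without Hnrnpk the coding sum was 49.2% of the control mean, close to the 51.6% of all protein-coding genes. The coding forms of the SR and Tra2 genes summed to 2817 ± 345 CPM against 2866 ± 363 CPM (SD, n = 3), with overlap, and their noncoding forms to 970 ± 175 CPM against 657 ± 100 CPM, lower in every labelled library. That noncoding difference rested on Srsf3: without it the sum was 561 ± 188 CPM against 590 ± 149 CPM, with overlap. These sums are given as a description, without a test. They and their percentages depend on the scaling: the hnRNP coding difference of -4452 CPM was -2029 CPM with library totals. Gene counts and summed transcript counts did not match for some genes: for Hnrnpm the ratio was 0.732 to 0.794 in the controls and 1.91 to 2.90 in the knockdown-labelled libraries.

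Jun is a subunit of AP-1, which binds TGACTCA, so RefSeq promoters (GRCm38.p6, 250 bases before to 50 after a start) were searched for it on both strands. Of the 33 genes, 31 had a promoter entry, and Hnrnpll and Hnrnpul2 had none. TGACTCA was in the promoter of 1 of the 31 genes, beside 5.95% of 27025 genes, and the CRE-like palindrome TGACGTCA, to which Jun with ATF partners binds, was in 1 of 31, beside 2.03% of genes. The match windows are shown with 30 bases on each side and the motif in capitals, and they were chosen after the values were seen. That of Hnrnpa1 lies 150 bases before the start at chr15:103240217-103240283, plus strand, and that of Tra2a 27 bases before the start at chr6:49264042-49264109, minus strand.
Hnrnpa1: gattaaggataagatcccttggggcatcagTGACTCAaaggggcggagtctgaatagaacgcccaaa
Tra2a: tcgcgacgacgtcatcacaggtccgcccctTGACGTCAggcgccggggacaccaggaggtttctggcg
Neither gene passed the test, and no match was found in the promoters of Hnrnpk, Hnrnpf or Srsf2.

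Partners of these proteins were read from lists of the splicing machinery, whose medians stand beside -0.12 for all genes tested. The lists were chosen with earlier results of these data known. Over all genes tested, 0.32% passed as higher and 1.35% as lower. Of 20 SR-related proteins, 2 passed the test, both higher. At an unadjusted p under 0.05 in edgeR's test, 5 of them were higher and 2 lower, beside 6.13% and 10.7% of all genes. Son, a core protein of nuclear speckles, stood at 394, 930 and 1289 CPM in the controls, and the values were 4539, 3692 and 3855 CPM in the knockdown-labelled libraries (log2 change 2.21, SE 0.40, adjusted p = 0.0357, edgeR). Rsrp1, an arginine- and serine-rich protein, stood at 417, 212 and 253 CPM against 1379, 1030 and 2177 CPM (2.38, SE 0.41, adjusted p = 0.0315). In both genes all labelled libraries were above all controls. The median of that list was 0.90. Of 10 tested SR protein kinases and the phosphatase, 0 passed edgeR's test, 4 were higher and 1 lower at an unadjusted p under 0.05 (6.13% and 10.7% of all genes), DESeq2 called 0 and limma-voom 2 higher. The kinases Clk4 (log2 change 1.87, SE 0.43, adjusted p = 0.0628) and Srpk2 (2.41, SE 0.56, adjusted p = 0.0655) came nearest.

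Of 25 neural and photoreceptor splicing regulators, 15 passed the filter on low counts and were tested. Among these 15, 1 passed as higher, beside 0.32% of all genes. At an unadjusted p under 0.05 in edgeR's test, 5 were higher and 0 lower, beside 6.13% and 10.7% of all genes. The median was 1.58 and covers the tested genes only. Celf2, which binds GU-rich RNA, stood at 192, 108 and 69.4 CPM in the controls, and the values were 1368, 567 and 610 CPM in the knockdown-labelled libraries (2.78, SE 0.55, adjusted p = 0.0454). Of 16 tested genes of nonsense-mediated decay and the exon junction complex, 1 passed, and the median was 0.55. At an unadjusted p under 0.05, 3 of the 16 were higher and 1 lower. Smg1, the kinase of Upf1, stood at 14.8, 32.1 and 16.2 CPM against 430, 336 and 290 CPM (4.06, SE 0.60, adjusted p = 0.0155). The labelled libraries were above all controls for both genes. Leaving out a library ended the calls of Son and Celf2 in each of 6 cases (adjusted p 0.0512 to 0.143 and 0.0662 to 0.163), that of Rsrp1 in all but labelled library 2 (0.0698 to 0.135 in the others) and that of Smg1 without control 1 (0.0996), control 3 (0.0947) or labelled library 1 (0.0563). With transcript counts summed per gene, Smg1 had a log2 change of 2.83 and an adjusted p of 0.0731.

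The other lists held no call by edgeR. Their counts stand beside 6.13% of all tested genes higher and 10.7% lower at an unadjusted p under 0.05, and their medians beside -0.12. Of 37 core spliceosome genes, 3 were higher and 6 lower at an unadjusted p under 0.05, DESeq2 called 1 higher and 2 lower and limma-voom 0, and the median was -0.04. Its smallest p-values belonged to Snrpb, an Sm core protein (-2.10, SE 0.52, adjusted p = 0.0752), and Sf3b6, which contacts the branch point (1.47, SE 0.42, adjusted p = 0.115). Of 18 other hnRNP-like regulators, 0 were higher and 4 lower at an unadjusted p under 0.05, DESeq2 called 2 lower and limma-voom 0, and the median was -0.57. They were led by the poly(C) binder Pcbp4 (-2.86, SE 0.73, adjusted p = 0.0824) and by Ptbp1, a repressor that binds polypyrimidine tracts, at 6.79, 89.0 and 0.140 CPM against 0.668, 0.0525 and 0.470 CPM (adjusted p = 0.228). Of 10 splicing factors of retinitis pigmentosa, 1 was lower at an unadjusted p under 0.05, Prpf8 of the spliceosome's catalytic core (-2.63, SE 1.02, adjusted p = 0.240), and DESeq2 and limma-voom called 0.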

How the data were processed

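The authors deposited estimated counts per gene and per transcript for 6 libraries, and a gene table of normalised values (a signal equal to the counts divided by 1 factor per library, used here for gene names and types only). The submitters' processing notes name Trimmomatic 0.39, kallisto 0.44.0 and edgeR 3.28.1, but not the part each played. Which build they used is not given in these sources. No step that marks strand is stated, so reads of overlapping antisense genes cannot be told apart. Every sample column was used (0 left out).

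The deposited estimated counts were rounded and tested with edgeR 4.0.16 in R 4.3.3 (TMM scaling, filterByExpr, quasi-likelihood test of group alone, Benjamini-Hochberg adjustment over all tested genes or transcripts, threshold 0.05). The ratio of noncoding to coding forms was tested with a term for each library, in genes with at least 10 counts of both classes together in every library and at least 1 count of each class. Transcript types, exons and lengths came from GENCODE vM21 (GRCm38), which held 134551 of the 136550 deposited transcripts. Only 1 of 8 forms of Srsf7, 8 of 15 of Hnrnpm and 1 of 2 of Hnrnpul2 in vM21 were in the deposited table. TPM was computed from those lengths. Single values per library were compared with two-sided exact permutation tests (scipy 1.17.1, Python 3.11.15). Alternatives were other scalings, filters, thresholds and pseudocounts, DESeq2 1.42.0, limma 3.58.1, thinned counts, a replicate block, each library left out, and, chosen after seeing the data, transcript counts summed per gene, shares and sums without Hnrnpa2b1 or Srsf3, shares split by position, and summed coding forms. The scripts were tested on simulated data. The genes and lists were chosen with earlier results of these data known. Values per library are given for genes past the threshold, for the 6 hnRNP and 6 SR or Tra2 genes with the highest level, and for the 4 with the smallest p in each direction. Transcripts are named if past the threshold or among the 6 with the smallest p in each direction, and from each list the genes that passed or otherwise the 2 with the smallest p. Other forms and genes with values were chosen after their values were seen.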

Additional observations from a re-analysis of the deposited data

How the results depend on the processing

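The number of the 33 genes called, 3 in the report, was 6 at an adjusted p of 0.1, 5 with no filter, 5 with a minimum of 1 CPM, 5 with limma-trend at either pseudocount, and 0 to 1 with 1 library left out. The calls in the partner lists, 4 in the report, were 15 at 0.1, 8 with library totals, 11 with no filter, 7 with a minimum of 1 CPM, 14 with DESeq2, 10 with limma-voom, 7 with thinned counts, 11 and 12 with limma-trend, and 0 to 2 with 1 library left out. Transcripts called, 1 in the report, were 11 at 0.1, 15 with no filter, 25 with DESeq2, 15 with limma-voom and 0 to 2 with 1 library left out. The ratio of forms had 0 calls and 1 with limma at a pseudocount of 2. Same-numbered libraries did not deviate together (correlations 0.0034, 0.0346 and -0.0098). With 3 libraries in each group this cannot exclude a pairing, which the labels do not state. With the replicate block the calls were 0 genes, 2 in the lists and 1 transcript.

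The difference in noncoding share, 19.7 percentage points, was 7.37, 17.3 and 10.2 under the other definitions and 18.6 to 21.5 with 1 library left out. The difference in summed hnRNP level, -1369 CPM, was 81.0 with upper quartiles, 445 with library totals, 457 without Hnrnpk and -2107 to -772 with 1 library left out. That of the SR and Tra2 sum, 550 CPM, was 887, 1464 and 1734 with the DESeq2, upper-quartile and total scalings and 447 to 682 with 1 library left out. The hnRNP coding sum, -4452 CPM, was -2029 with library totals, -2074 without Hnrnpk and -5262 to -3972 with 1 library left out. The SR and Tra2 coding sum, 49.1 CPM, was 1523 with library totals and -121 to 248 with 1 library left out, reversing to -53.0, -48.1 and -121 without control 2, control 3 and labelled library 3.

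Log2 fold changes reversed in genes that overlapped and, for Srsf10, with summed transcripts (-0.25). With upper quartiles Hnrnpm was 0.18, Hnrnpr 0.25 and Tra2b 0.17. With library totals Hnrnpl was 0.13, Hnrnpm 0.27, Hnrnpr 0.29 and Tra2b 0.27. With thinned counts Hnrnpm was 0.058, Hnrnpr 0.14 and Tra2b 0.054. With 1 library left out the ranges were -1.11 to 0.026 for Hnrnpd (highest without control 3), -0.52 to 0.29 for Hnrnpm and -0.45 to 0.22 for Tra2b (highest without control 2 in both), -4.56 to 0.67 for Srsf12 (highest without control 1), -0.64 to 2.91 for Hnrnpul1 (lowest without labelled library 1) and -1.16 to 0.35 for Hnrnpr, which was positive without control 2 (0.35), labelled library 1 (0.17) or labelled library 2 (0.074). Hnrnpr was 0.49 with summed transcripts. The cause was not tested. Depth limits low genes in the labelled libraries most, and intervals and floors cover counting error only.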
